A study of Homo sapiens with 23 samples.

Results

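The nuclear-encoded subunits of the mitochondrial respiratory chain and ATP synthase were taken by gene symbol (NDUFA, NDUFB, NDUFC, NDUFS and NDUFV genes, SDHA to SDHD, and named UQCR, COX and ATP5 genes), which gave 74 genes of the 60564 listed in every library. The rule used no measured value. By name, 37 of them belong to complex I, 4 to complex II, 8 to complex III, 10 to complex IV and 15 to ATP synthase. They were measured by mRNA-seq in 23 libraries of established human cell lines kept on an integrated gut-liver chip, in which Caco-2, a colorectal adenocarcinoma line used as a model of intestinal epithelium, and HepG2, a hepatocellular carcinoma line used as a model of liver cells, grew alone (mono-culture) or connected by circulating medium (co-culture). By the labels, the medium held either no added free fatty acids (control) or 1 mM of palmitic and oleic acid (FFAs) for 1 day. Each of the 8 groups had 3 libraries, except Caco-2 co-culture control with 2, so that Caco-2 had 11 libraries and HepG2 12. Each line is 1 tumour line. The methods of the study speak of independent experiments for mRNA-seq, but neither they nor the labels say which libraries came from which experiment, so that p-values measure the spread between these libraries, part of which may be technical.

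Complexes I and II pass electrons from NADH and succinate to ubiquinone, complex III passes them to cytochrome c, and complex IV hands them to oxygen. Complexes I, III and IV pump protons across the inner mitochondrial membrane, and ATP synthase uses the returning protons to make ATP. Complex II is coded by nuclear genes alone, whereas the others also hold subunits coded by the mitochondrial genome, and enterocytes and hepatocytes both burn fatty acids through this chain. Values are TPM (the share of all transcripts in a library, already divided by transcript length). Between genes they can be compared only as far as transcripts were recovered equally well, which was not tested. All 13 subunits of the mitochondrial genome were listed at 0 in every library, because the authors removed reads of that genome, and only the nuclear part of the chain could be followed.

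The lines carried their labels: the summed level of 6 hepatocyte genes (ALB, FGA, FGB, FGG, AHSG and APOH) was 31115 to 50769 TPM in HepG2 and 2127 to 4321 TPM in Caco-2. RNA of this set was thus also present in Caco-2, in mono-culture too. The summed level of 6 intestinal genes (CDX1, CDX2, CDH17, LGALS4, SI and MUC13) was 461 to 616 TPM in Caco-2 and 0.18 to 3.88 TPM in HepG2. CDX1 did not exceed 0.18 TPM in any library, and SI, a brush border enzyme, reached only 16.6 TPM in Caco-2. The 10 most abundant genes took 5.86 to 7.02% of all TPM in Caco-2 and 12.96 to 15.1% in HepG2. TPM of a library have a fixed total, and the part of this in the differences between the lines was not tested. Between 19259 and 23689 genes were above 0 TPM. The depth per library is unknown, since TPM hold no counts.

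The 74 transcripts were abundant in both lines. Their sum was 3.20 to 3.68% of all TPM in the 11 Caco-2 libraries and 2.17 to 2.56% in the 12 HepG2 libraries, and these ranges did not overlap. Fewer mitochondria per cell and less RNA of each gene cannot be told apart in such bulk values. All 74 passed the filter on low values, which asked for a group mean of 1 TPM or more. The median member had a mean of 345 TPM in Caco-2 and 225 TPM in HepG2. Most abundant in both lines was ATP5F1B, the catalytic beta subunit of ATP synthase, with a mean of 2248 ± 195 TPM (SD, n = 11) in Caco-2 and 1191 ± 66.7 TPM (SD, n = 12) in HepG2. Least abundant in both was NDUFV3, an accessory subunit of complex I, with 23.4 ± 2.7 TPM in Caco-2 and 28.0 ± 3.27 TPM in HepG2. Across the 74 genes, the mean log2(TPM + 1) in the lines had a Pearson r of 0.906 and a Spearman rho of 0.891. This is a description across genes of the same libraries, and genes are not independent replicates.

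Within each complex the TPM spread widely. Unequal recovery of the transcripts was not separated from unequal levels in this order of the subunits. In complex I the highest mean was that of NDUFC2 in Caco-2 (1052 ± 60 TPM) and of NDUFA13 in HepG2 (650 ± 35.8 TPM), both accessory subunits. Complex II spanned the narrowest range. Its lowest member in both lines was SDHB, the iron-sulphur subunit, with 162 ± 15 TPM in Caco-2 and 90.5 ± 13.2 TPM in HepG2. Its highest member was SDHD, a membrane anchor, in Caco-2 (533 ± 27.5 TPM), but SDHA, the flavoprotein that oxidizes succinate, in HepG2 (230 ± 20.4 TPM). In complex III the order also differed, with UQCRC1, a core protein, highest in Caco-2 at 940 ± 70.4 TPM and UQCRQ, a small subunit, highest in HepG2 at 598 ± 131 TPM. UQCRB was lowest in both, at 75.1 ± 4.81 and 61.6 ± 6.11 TPM. In complex IV both lines had COX6A1 highest (2120 ± 129 and 1072 ± 46.1 TPM) and COX7B lowest (165 ± 14.1 and 84.8 ± 18.0 TPM). In ATP synthase, ATP5F1E, the epsilon subunit of the F1 head, was lowest at 57.1 ± 4.48 TPM in Caco-2 and 40.2 ± 5.2 TPM in HepG2.

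**Figure D1:**
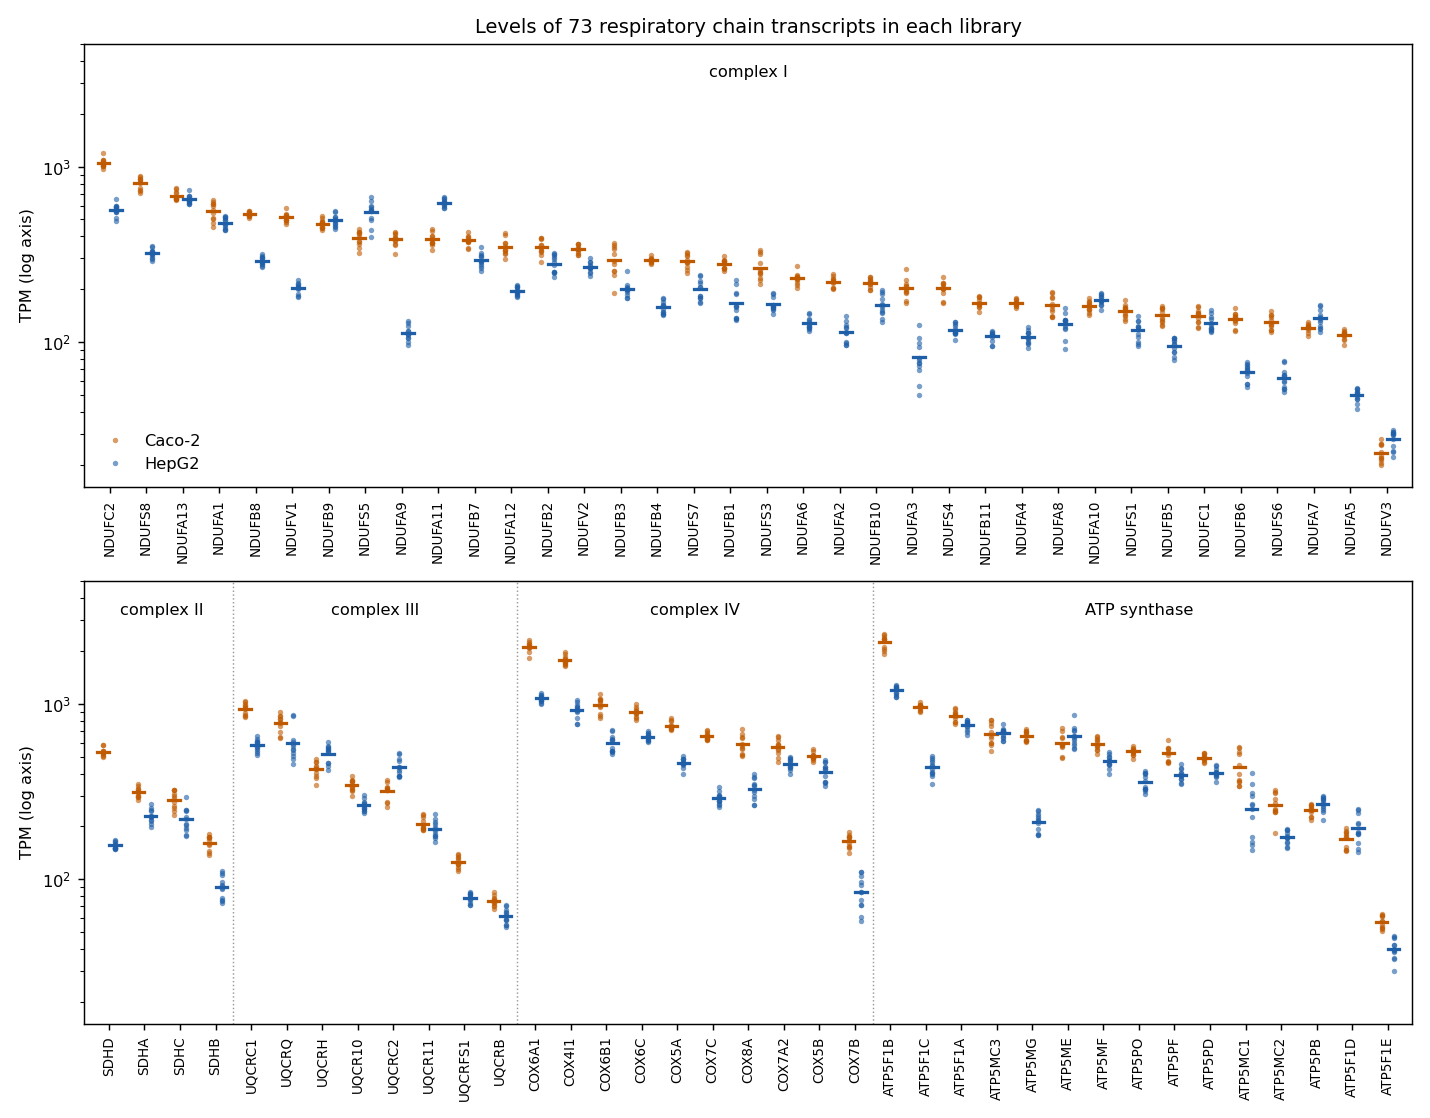
TPM on a log axis of 73 of the 74 transcripts, ordered within a complex by the mean in Caco-2, with 1 point per library (orange, 11 Caco-2 libraries; blue, 12 HepG2 libraries) and a bar at the mean of the line. Levels run from NDUFV3 at the bottom, with means of 23.4 and 28.0 TPM, to ATP5F1B at the top, with 2248 and 1191 TPM.

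The comparison of the lines asked how the chain differed between the gut and the liver model, averaged over the 4 conditions (mono-culture and co-culture, control and FFAs). Of the 74 members, 66 differed at an adjusted p under 0.05 (limma on log2(TPM + 1), adjusted over all genes tested), 59 of them higher in Caco-2 and 7 higher in HepG2. Among all 16495 genes tested, 79% were called in this comparison, 49.8% higher in Caco-2 and 29.2% higher in HepG2. The share of members called was therefore near the background, and the share higher in Caco-2 was above it. The median log2 difference (Caco-2 minus HepG2) over the members was 0.54, and that over all genes tested was 0.24. That background shift depended on the scaling: after median-of-ratios scaling the medians were 0.31 and 0.05, and after quantile normalization 0.40 and -0.02. Among all called genes, the share higher in Caco-2 was 63.1% as deposited, 52.5% after median-of-ratios scaling and 49.2% after quantile normalization, whereas the members split 59 to 7, 46 to 13 and 57 to 10. Members are not independent of each other, and these counts describe the list and do not test it.

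The same comparison within a single condition called 59 members in mono-culture control (background 62.4%), 54 in mono-culture with FFAs (61.1%), 53 in co-culture control (58.8%) and 58 in co-culture with FFAs (61%). Called in all 4 conditions were 44 members that were higher in Caco-2, and NDUFA11 and NDUFS5, which were higher in HepG2 each time. After median-of-ratios scaling these counts were 27 and 7, and after quantile normalization 40 and 5. Without any fit, 43 members had all 11 Caco-2 libraries above all 12 HepG2 libraries, which held for 28.6% of all genes tested. Only NDUFA11 and UQCRC2 had the opposite order, against 14.1% of all genes. By complex, every Caco-2 library was above every HepG2 library for 23 of the 37 genes of complex I, 3 of 4 in complex II, 2 of 8 in complex III, 8 of 10 in complex IV and 7 of 15 in ATP synthase.

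**Figure D2:**
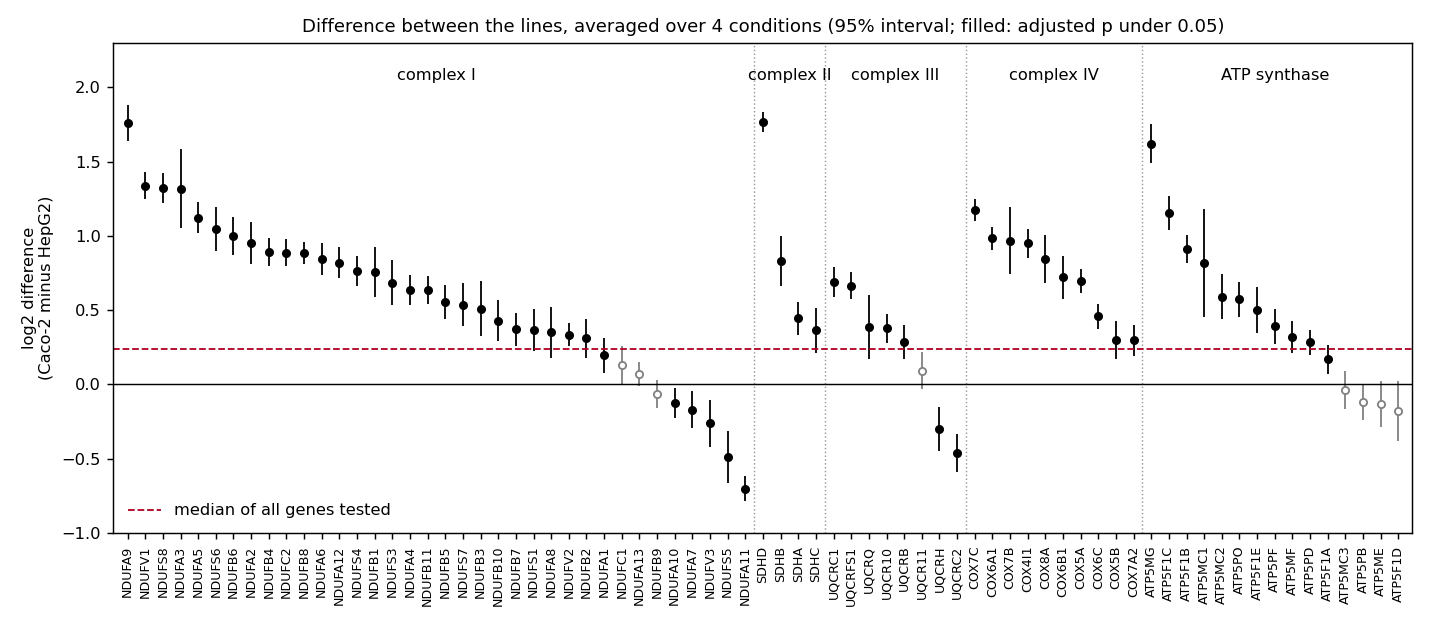
Log2 difference between the lines (Caco-2 minus HepG2, on log2(TPM + 1), averaged over 4 conditions) for 73 of the 74 members by complex, with 95% intervals. Filled points passed an adjusted p under 0.05 (limma), and the dashed line is the median of all genes tested, 0.24. All 10 complex IV genes are above 0, whereas complexes I and III have members on both sides.

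In complex I, 29 of 37 members were higher in Caco-2 and 5 were higher in HepG2. All 7 core subunits, which carry the flavin and iron-sulphur clusters or lie beside them, were higher in Caco-2, with log2 differences of 0.34 to 1.34. NDUFV1, which binds NADH and the flavin, ranged from 473 to 579 TPM in Caco-2 (median 513) and from 181 to 225 TPM in HepG2 (median 206). The groups did not overlap, and the log2 difference was 1.34 ± 0.05 (SE; adjusted p = 4.7e-16, limma). NDUFS8, an iron-sulphur core subunit, was 707 to 880 TPM in Caco-2 and 288 to 352 TPM in HepG2, a difference of 1.32 ± 0.05. NDUFS1, the largest core subunit, differed less, with medians of 155 and 120 TPM, overlapping libraries and a difference of 0.37 ± 0.07 (adjusted p = 5.7e-05, limma). After median-of-ratios scaling the difference of NDUFS1 was 0.14 and was not called. Of the 13 NDUFB and NDUFC genes of the membrane arm, 11 were higher in Caco-2 and none was called higher in HepG2. After median-of-ratios scaling NDUFB2 and NDUFB7 were not called, and NDUFB9 was called higher in HepG2. NDUFA1 and NDUFA8, called higher in Caco-2, were not called after that scaling either, and NDUFA8 not after quantile normalization.

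The remaining accessory subunits of complex I held both extremes. NDUFA9, a peripheral-arm subunit near the quinone site, was 319 to 425 TPM in Caco-2 (median 392) and 96.8 to 131 TPM in HepG2 (median 112), a difference of 1.76 ± 0.06 (adjusted p = 2.7e-16, limma) without overlap. NDUFA11, a membrane-arm subunit, went the other way, with 337 to 441 TPM in Caco-2 (median 371) and 579 to 670 TPM in HepG2 (median 626), a difference of -0.70 ± 0.04 (adjusted p = 3.7e-12, limma). NDUFS5 was 323 to 439 TPM in Caco-2 and 399 to 668 TPM in HepG2, which overlapped, with a difference of -0.49 ± 0.08. NDUFV3, at a low level in both lines, had a difference of -0.26 ± 0.08, with 20.03 to 27.95 TPM in Caco-2 and 22.2 to 31.5 TPM in HepG2. NDUFA7 (-0.17 ± 0.06) and NDUFA10 (-0.12 ± 0.05) were the other called genes of complex I that were higher in HepG2. NDUFA4, which carries a complex I name but is assigned to complex IV, was 157 to 177 TPM in Caco-2 and 92.7 to 122 TPM in HepG2, a difference of 0.64 ± 0.05 without overlap.

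All 4 genes of complex II were higher in Caco-2, and SDHD stood out among all 74. Its level was 500 to 585 TPM in Caco-2 (median 527) and 149 to 167 TPM in HepG2 (median 154), with no overlap, and its log2 difference of 1.77 ± 0.03 (adjusted p = 5.7e-20, limma) was the largest of the members. SDHC, with which SDHD forms the membrane anchor, had medians of 289 and 213 TPM with overlapping libraries, and a difference of 0.36 ± 0.07, which was not called after median-of-ratios scaling. SDHA and SDHB differed by 0.45 ± 0.05 and 0.83 ± 0.08.

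Complex III was split. Of 8 members, 5 were higher in Caco-2 and 2 in HepG2, and the mean log2 difference over the complex was 0.22, against -0.014 after median-of-ratios scaling and 0.11 after quantile normalization. Of the 5, UQCRB and UQCRQ were not called after median-of-ratios scaling, and UQCRB was not called after quantile normalization either. UQCRC1 and UQCRC2, the core proteins that pair in the complex, differed in opposite directions: UQCRC1 had medians of 946 TPM in Caco-2 and 584 TPM in HepG2 (0.69 ± 0.05), whereas UQCRC2 had medians of 324 TPM and 426 TPM (-0.46 ± 0.06). In neither case did the libraries of the lines overlap. UQCRFS1, the Rieske iron-sulphur protein, was 111 to 140 TPM in Caco-2 and 70.9 to 84.1 TPM in HepG2, a difference of 0.66 ± 0.04. UQCRH, the hinge protein that touches cytochrome c1, had medians of 424 and 542 TPM and a difference of -0.30 ± 0.07 with overlapping libraries.

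Every one of the 10 complex IV genes was higher in Caco-2, with log2 differences of 0.30 (COX7A2 and COX5B) to 1.17 (COX7C). After median-of-ratios scaling COX7A2 and COX5B were not called. COX4I1, the ubiquitous form of subunit 4 that takes part in the regulation of the enzyme by ATP, was 1648 to 1967 TPM in Caco-2 (median 1740) and 770 to 1052 TPM in HepG2 (median 926). Its libraries did not overlap between the lines, and the difference was 0.95 ± 0.05 (adjusted p = 1.8e-13, limma). COX7C was 619 to 705 TPM in Caco-2 and 259 to 336 TPM in HepG2.

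In ATP synthase, 11 of 15 members were higher in Caco-2 and none was called higher in HepG2. ATP5MG, the g subunit of the membrane part, had the largest difference, with 603 to 717 TPM in Caco-2 (median 669) and 179 to 248 TPM in HepG2 (median 215), or 1.62 ± 0.06 (adjusted p = 6.5e-15, limma). The F1 subunits alpha and beta, which alternate in the same ring, differed by unequal amounts: ATP5F1B by 0.91 ± 0.05, and ATP5F1A, with overlapping ranges of 763 to 941 and 668 to 805 TPM, by 0.17 ± 0.05. ATP5F1A had -0.064 after median-of-ratios scaling and was not called there, and neither were ATP5MF and ATP5PD. The 4 genes that were not called were ATP5MC3, ATP5PB, ATP5ME and ATP5F1D, with 95% intervals of the log2 difference between -0.38 (ATP5F1D) and 0.09 (ATP5MC3). After median-of-ratios scaling these 4 genes were called higher in HepG2. After quantile normalization ATP5F1D, ATP5ME and ATP5PB were called higher in HepG2 as well, so that the absence of such calls depends on the scaling.

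The c ring of ATP synthase is built from 1 mature protein that 3 genes encode, and the mix of these genes differed between the lines. ATP5MC3 supplied 47.1 to 53.2% of their summed TPM in Caco-2 and 56.2 to 68.4% in HepG2. ATP5MC1 supplied 27.1 to 34.3% in Caco-2 and 14.1 to 29.8% in HepG2, and ATP5MC2 15.6 to 23.7% and 13.4 to 18.6%. The summed level was 1121 to 1697 TPM in Caco-2 and 945 to 1361 TPM in HepG2. Between the lines ATP5MC1 differed by 0.82 ± 0.17, ATP5MC2 by 0.59 ± 0.07 and ATP5MC3 by -0.04 ± 0.06, the last of which was not called (adjusted p = 0.61, limma) and had -0.27 after median-of-ratios scaling, where it was called.

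ATP5MC1 was also the member that varied most between libraries of a group, with a residual SD of 0.30 in Caco-2 and 0.56 in HepG2 on the log2 scale. In HepG2 it was 265, 225 and 175 TPM in replicates 1, 2 and 3 of mono-culture control, 405, 253 and 147 TPM in mono-culture with FFAs, 297, 311 and 163 TPM in co-culture control, and 351, 269 and 156 TPM in co-culture with FFAs. The 4 libraries numbered 3 were all below the other 8. ATP5MC2 and ATP5MC3 showed no such order. In HepG2 the libraries numbered 3 lay below all others for 5 members (ATP5MC1, NDUFA2, NDUFS5, SDHB and UQCRH) and above all others for 3 (ATP5PO, COX7B and NDUFA10). These libraries had 21588 to 22416 genes above 0 TPM, more than the 19259 to 20873 of the other HepG2 libraries. The part of that difference in the ATP5MC1 values was not tested.

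**Figure D3:**
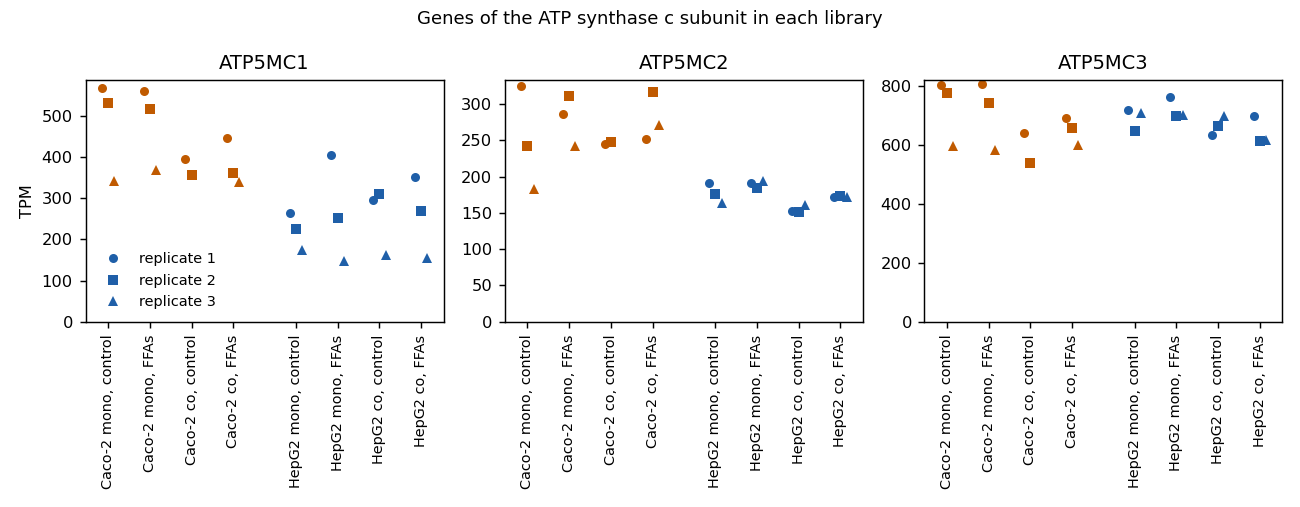
TPM of the 3 genes that encode the c subunit of ATP synthase, 1 point per library, by line and condition, with the marker shape giving the replicate number. For ATP5MC1 the HepG2 libraries numbered 3 (triangles) lie at 147 to 175 TPM, below the other 8, whereas ATP5MC3 lies between 539 and 809 TPM in both lines.

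RefSeq promoters (GRCh38.p14, 250 bases before to 50 bases after the start of the gene) were available for 61 of the 74 members. NDUFS5, SDHC and ATP5F1B were among those with no entry. Motifs of 3 factors known to bind promoters of respiratory genes were searched on both strands: NRF1 (GCGC, any base, then TGCGC), ETS factors such as GABPA (CCGGAAG) and YY1 (AAGA directly followed by TGGC). The NRF1 motif was found in 15 of the 61 promoters (24.6%) and in 6.28% of all 27305 promoters, the ETS motif in 19 (31.1%) and 10.7%, and the YY1 motif in 11 (18.0%) and 3.03%. At least 1 of the motifs was in 36 of the 61 (59.0%) and in 17.9% of all. Among members with a promoter, 29 of the 50 that were higher in Caco-2 and 3 of the 6 that were higher in HepG2 held at least 1. A match is a description of the letters and not a site of binding.

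The promoters of the 3 members with an entry and the largest difference in each direction are printed 5′ to 3′ on the strand of the gene, to show where the motifs lie in the genes at both ends of the line comparison. Capitals mark the motif matches: NRF1 110 bases and ETS 77 bases before the start in SDHD, NRF1 80 bases before the start and YY1 just after it in NDUFA9, ETS just after the RefSeq start in ATP5MG, NRF1 98 bases before the start in NDUFA11 and ETS 46 bases before the start in UQCRH. No match was found in this window of UQCRC2. In the GENCODE annotation of GRCh38, SDHD spans chr11:112086824-112120016 (+), NDUFA9 chr12:4649095-4694317 (+) and NDUFA11 chr19:5891276-5904006 (-), and each window covers the start of its gene. In NDUFA11 the GENCODE start comes before the NRF1 match on the strand of the gene, so that by GENCODE this match is inside the gene. The window of ATP5MG lies around the RefSeq start, and the GENCODE start of this gene (chr11:118401346) is before the window, so that by GENCODE the printed bases and their ETS match are inside the gene. The windows are chr11:112086623-112086922 (+) for SDHD, chr12:4648864-4649163 (+) for NDUFA9, chr11:118401356-118401655 (+) for ATP5MG, chr19:5903741-5904040 (-) for NDUFA11, chr16:21953111-21953410 (+) for UQCRC2 and chr1:46303448-46303747 (+) for UQCRH.
SDHD: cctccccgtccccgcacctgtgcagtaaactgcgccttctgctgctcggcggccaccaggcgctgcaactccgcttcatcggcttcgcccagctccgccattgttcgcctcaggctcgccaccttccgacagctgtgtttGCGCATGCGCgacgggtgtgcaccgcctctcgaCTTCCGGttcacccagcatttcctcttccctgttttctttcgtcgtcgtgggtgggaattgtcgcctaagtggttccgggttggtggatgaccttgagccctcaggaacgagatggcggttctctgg
NDUFA9: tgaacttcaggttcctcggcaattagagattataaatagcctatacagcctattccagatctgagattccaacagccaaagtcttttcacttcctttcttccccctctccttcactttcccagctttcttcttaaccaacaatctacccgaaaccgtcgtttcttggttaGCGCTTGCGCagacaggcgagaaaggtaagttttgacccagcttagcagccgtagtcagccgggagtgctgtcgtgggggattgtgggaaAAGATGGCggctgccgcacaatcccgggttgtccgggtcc
ATP5MG: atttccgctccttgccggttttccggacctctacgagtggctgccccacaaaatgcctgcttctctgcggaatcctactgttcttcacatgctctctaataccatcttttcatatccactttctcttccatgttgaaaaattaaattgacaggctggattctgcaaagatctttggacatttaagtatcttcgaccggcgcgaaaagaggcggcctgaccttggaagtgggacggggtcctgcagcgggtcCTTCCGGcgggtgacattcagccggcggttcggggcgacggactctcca
NDUFA11: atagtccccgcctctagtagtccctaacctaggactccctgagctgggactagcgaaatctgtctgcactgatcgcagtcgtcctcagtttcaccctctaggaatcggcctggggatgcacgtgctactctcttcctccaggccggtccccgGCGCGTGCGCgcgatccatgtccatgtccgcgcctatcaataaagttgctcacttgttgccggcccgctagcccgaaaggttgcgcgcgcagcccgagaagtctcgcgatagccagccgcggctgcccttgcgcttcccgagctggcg
UQCRC2: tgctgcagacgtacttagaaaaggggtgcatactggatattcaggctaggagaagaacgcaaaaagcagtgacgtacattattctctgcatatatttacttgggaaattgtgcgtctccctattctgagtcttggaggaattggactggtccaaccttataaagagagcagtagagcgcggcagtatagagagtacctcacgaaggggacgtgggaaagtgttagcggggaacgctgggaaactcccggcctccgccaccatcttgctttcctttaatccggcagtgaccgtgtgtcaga
UQCRH: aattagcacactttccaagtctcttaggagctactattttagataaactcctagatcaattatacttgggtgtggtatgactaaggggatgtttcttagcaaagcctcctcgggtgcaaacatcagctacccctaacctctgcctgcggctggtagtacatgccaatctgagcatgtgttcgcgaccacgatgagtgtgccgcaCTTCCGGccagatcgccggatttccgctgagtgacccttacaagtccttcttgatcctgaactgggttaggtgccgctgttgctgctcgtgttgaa
Read in this order, the first 3 belong to genes higher in Caco-2 and the last 3 to genes higher in HepG2, and motif matches occur on both sides.

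The members lie on 22 chromosomes. The 7 on chromosome 11 (SDHD, ATP5MG, NDUFV1, NDUFS8, NDUFC2, COX8A and NDUFS3) were all called higher in Caco-2, with a median log2 difference of 1.32. The 915 genes tested on that chromosome had a median of 0.73, and 79.9% of them were above 0. The 6 members on chromosome 5 and the 5 on chromosome 12 were also all higher in Caco-2, with medians of 0.86 and 0.91 beside 0.50 and 0.67 for all genes tested there. The 10 members on chromosome 19 had a median of 0.23 beside 0.12. The part of whatever the genes of a chromosome share in the differences of the members was not tested.

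Genes that work with the chain were described beside the members. Of 58 assembly factors, 32 were higher in Caco-2 and 17 in HepG2, shares near those of all genes, with a median of 0.24, which equals that of all genes. TMEM126B, a complex I assembly factor, was 157 to 208 TPM in Caco-2 and 32.9 to 52.1 TPM in HepG2 (2.02 ± 0.05), and COX14, a complex IV factor, differed by 1.17 ± 0.06. NUBPL, which delivers iron-sulphur clusters to complex I, was 11.2 to 18.0 TPM in Caco-2 and 25.9 to 40.5 TPM in HepG2 (-1.24 ± 0.07), and COX11, a copper chaperone, differed by -0.91 ± 0.05. COA4 differed by 0.95 ± 0.06.

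Of 15 subunits and partners that the naming rule left out, 8 were tested, 5 were higher in Caco-2 and 1 in HepG2, beside 49.8% and 29.2% of all genes. NDUFAB1, the acyl carrier protein of complex I, was 267 to 316 TPM in Caco-2 and 494 to 569 TPM in HepG2 (-0.89 ± 0.04). CYC1, cytochrome c1 of complex III, differed by 0.49 ± 0.04, and COX7A2L by 0.29 ± 0.07. ATP5MPL and ATP5MD, small subunits of ATP synthase, differed by 0.57 ± 0.06 and 0.47 ± 0.06.

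Of 13 regulators of mitochondrial biogenesis, 7 were higher in Caco-2 and 4 in HepG2, shares near the 49.8% and 29.2% of all genes. PPARGC1A, the coactivator of respiratory genes, was at most 0.48 TPM in Caco-2 and 8.5 to 30.4 TPM in HepG2 (-4.25 ± 0.15), whereas its relative PPARGC1B was 5.11 to 10.5 TPM in Caco-2 and 0.75 to 1.79 TPM in HepG2 (1.92 ± 0.11). TFAM, which packs mitochondrial DNA, was 166 to 220 TPM in Caco-2 and 55.5 to 82.7 TPM in HepG2 (1.46 ± 0.06), and TFB1M, a mitochondrial rRNA methyltransferase, went the other way (-1.97 ± 0.08), as did MYC (-1.40 ± 0.13). The 80 cytosolic and 78 mitochondrial ribosomal protein genes tested, other short and abundant transcripts, had median differences of 0.19 and 0.21, below the 0.54 of the members.

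The remaining comparisons asked whether FFAs or co-culture changed the chain within a line. No member was called for FFAs against control, in either culture or averaged over both, in either line (limma on log2(TPM + 1), adjusted over all genes tested). The background was equally low, at 0.0199% of genes in Caco-2 co-culture and 0% in the other FFAs comparisons. At an unadjusted p under 0.05 there were 0 members in mono-culture in both lines, 1 in Caco-2 and 0 in HepG2 co-culture, and 1 in each line averaged over cultures. The median log2 difference (FFAs minus control, averaged over cultures) was 0.00 in Caco-2 and 0.04 in HepG2, beside 0.01 in both lines for all genes. The 95% intervals of these averaged differences were within 0.5 of 0 on the log2 scale for 73 of 74 members in each line, with NDUFB3 in Caco-2 and ATP5MC1 in HepG2 reaching further.

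Values nearest to a call are given without a direction being drawn. For the averaged effect of FFAs in Caco-2 they were NDUFS4, a complex I accessory subunit (0.19, 95% interval 0.02 to 0.35), and NDUFB3 (0.30, -0.02 to 0.63). NDUFB3 was 360, 279 and 190 TPM in mono-culture control and 347, 320 and 254 TPM in mono-culture with FFAs. In co-culture it was 253 and 240 TPM in control and 338, 369 and 288 TPM with FFAs. The control and FFAs libraries overlapped in mono-culture and not in co-culture. For HepG2 they were ATP5MC2 (0.13, 0.00 to 0.26) and UQCRB (0.16, -0.02 to 0.34). Their adjusted p was 0.99 in Caco-2 and 1.00 in HepG2 (limma).

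Within a culture, COX6A1 (-0.16) and NDUFS3 (-0.25) were nearest in Caco-2 mono-culture, and COX7A2 (0.26) and NDUFA1 (0.26) in Caco-2 co-culture. In HepG2 they were NDUFV2 (-0.18) and UQCRC2 (0.24) in mono-culture, and ATP5MC2 (0.16) and UQCRB (0.20) in co-culture. All had an adjusted p of 1 (limma). The test of whether the FFAs effect differed between cultures called 0 members and 0% of genes in both lines (limma; 1 member in Caco-2 and 0 in HepG2 at an unadjusted p under 0.05), with COX7A2 (0.30) and UQCR11 (0.28) nearest in Caco-2 and NDUFA8 (-0.36) and NDUFV2 (0.17) nearest in HepG2.

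**Figure D4:**
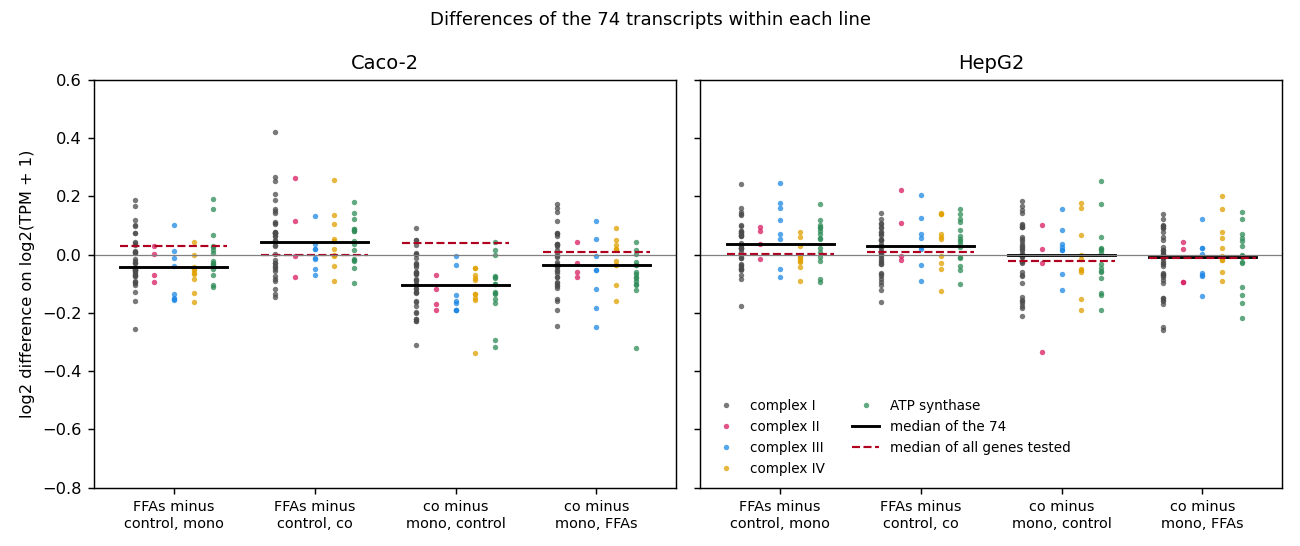
Log2 differences on log2(TPM + 1) of the 74 members within Caco-2 (left) and HepG2 (right), 1 point per member coloured by complex, for FFAs minus control and co-culture minus mono-culture. The solid bar is the median of the members and the dashed bar that of all genes tested. No point was called, and the Caco-2 control column has its median at -0.10 beside 0.04 for all genes.

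For co-culture against mono-culture no member was called either, in control, with FFAs or averaged, in either line (limma). The background was 0.0199% in Caco-2 control, 0.0561% in HepG2 averaged over treatments, and 0% in the others. In HepG2 same-numbered libraries of these groups deviated together, though in control only those numbered 3 stood apart. A fit there with the replicate number as a block called 6 genes in control, 1 with FFAs and 492 (3.45%) averaged, with 0 members among them. The smallest adjusted p of a member in that averaged fit was 0.063 (COX4I1, 0.18 ± 0.05, limma). In Caco-2 the averaged fit with the block called 60 genes (0.398%) and 0 members, and the smallest adjusted p of a member was 0.0507 (limma). Without the block, an unadjusted p under 0.05 was found for 2 members of each line in control and for 4 in Caco-2 and 0 in HepG2 with FFAs. Averaged over treatments it was found for 7 in Caco-2 and 3 in HepG2. In Caco-2 61 of 74 averaged point estimates were below 0, with a median of -0.07 beside 0.03 for all genes. In control alone 65 were below 0 with a median of -0.10 beside 0.04. Members are not independent of each other, so that these counts are no test. The mean log2(TPM + 1) of the members overlapped between cultures. It was 8.36 to 8.50 in mono-culture and 8.31 to 8.38 in co-culture control, and 8.35 to 8.49 and 8.33 to 8.47 with FFAs. After median-of-ratios scaling 69 of the averaged estimates were below 0 and after quantile normalization 57 were. Mitochondrial ribosomal protein genes had a median of -0.11 and assembly factors of -0.07 in the same averaged comparison, whereas cytosolic ribosomal protein genes had 0.04. In HepG2 40 of 74 were below 0, with a median of -0.02, the same as that of all genes.

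UQCRFS1 had the smallest p in Caco-2. It was 139.8, 133.3 and 122.5 TPM in mono-culture control and 136.9, 132.1 and 129.4 TPM in mono-culture with FFAs. In co-culture it was 121.4 and 114.4 TPM in control and 122.3, 111 and 117.7 TPM with FFAs, each below every mono-culture library, the nearest by less than 1 TPM. The averaged difference was -0.17 (95% interval -0.30 to -0.04, adjusted p = 0.38, limma). UQCRC2 had -0.22 (-0.39 to -0.05, adjusted p = 0.39), with overlapping libraries. In control alone COX7A2 had -0.34 and NDUFA3 -0.31, and with FFAs NDUFB6 had -0.24 and NDUFB10 0.18.

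In HepG2 the members nearest to a call for co-culture were ATP5MC2 (-0.16, 95% interval -0.29 to -0.04, adjusted p = 0.29, limma) and NDUFS4 (-0.15, -0.29 to -0.02). ATP5MC2 was 191, 176 and 164 TPM in mono-culture control and 192, 184 and 194 TPM in mono-culture with FFAs. In co-culture it was 153, 151 and 160 TPM in control and 172, 173 and 172 TPM with FFAs. The control groups did not overlap, nor did the FFAs groups. SDHC had -0.33 in control, and COX4I1 (0.20) and ATP5MC3 (-0.17) were nearest with FFAs.

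Hepatocyte markers bear on the RNA of the other line in co-culture. Their sum in Caco-2 was 2516 to 3595 TPM in mono-culture control and 3447 to 3687 TPM in co-culture control, and 2127 to 3153 and 3303 to 4321 TPM with FFAs. All 6 had point estimates above 0 for co-culture averaged over treatments, with a median log2 difference of 0.53, and none of the 6 was called. In HepG2 all 6 had point estimates below 0, with a median of -0.24 and none called, and the difference between the lines in this co-culture effect was called for FGA, FGB and FGG. The sum of the intestinal markers in HepG2 was 0.18 to 2.00 TPM in mono-culture and 0.56 to 3.88 TPM in co-culture. Their part in the co-culture values of the members was not tested.

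**Figure D5:**
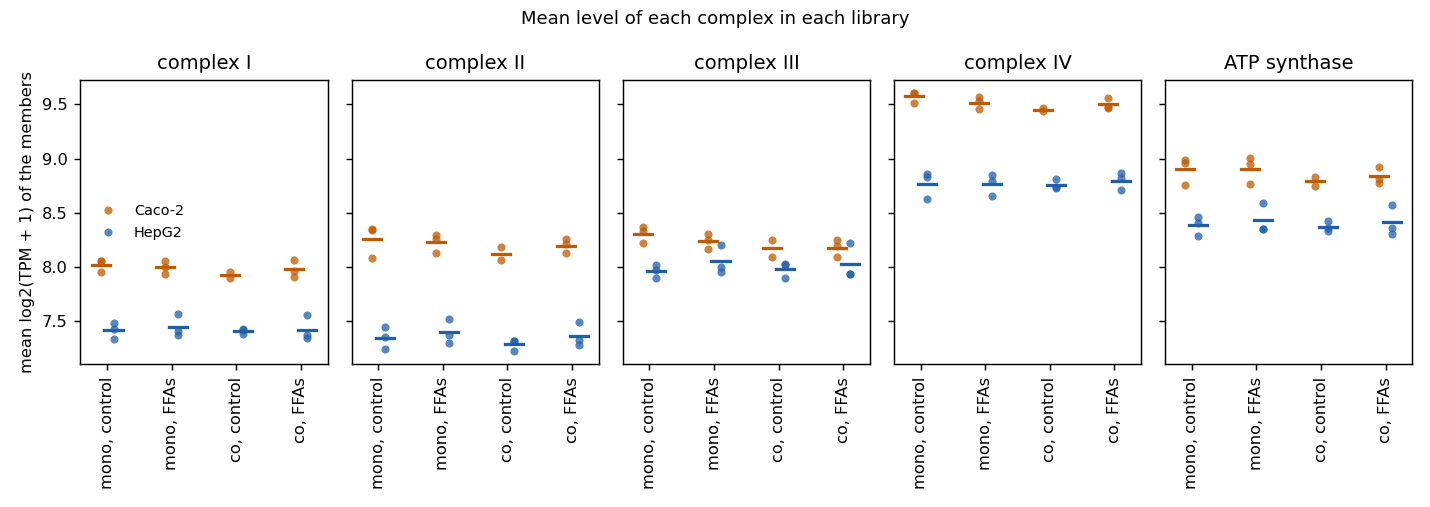
Mean log2(TPM + 1) over the members of each complex in each library (1 point) by condition, with a bar at the group mean, for Caco-2 (orange) and HepG2 (blue). The lines are apart for complexes I, II and IV and ATP synthase and overlap for complex III, and the 4 conditions of a line differ by less than the lines do.

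Seen by complex, the lines differed more than the conditions in the TPM as deposited. The line difference of complex III did not persist after median-of-ratios scaling, as given above. The mean log2(TPM + 1) of complex I was 7.90 to 8.06 over the Caco-2 libraries and 7.34 to 7.57 over the HepG2 libraries. For complex II the ranges were 8.07 to 8.35 and 7.22 to 7.52, for complex IV 9.44 to 9.61 and 8.63 to 8.87, and for ATP synthase 8.752 to 9.003 and 8.29 to 8.59. Complex III overlapped, at 8.09 to 8.37 and 7.90 to 8.22. Within Caco-2, group means of complex IV ran from 9.45 ± 0.02 (SD, n = 2) in co-culture control to 9.58 ± 0.05 (SD, n = 3) in mono-culture control. Within HepG2 they ran from 8.76 ± 0.05 in co-culture control to 8.80 ± 0.08 in co-culture with FFAs (SD, n = 3 each).

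Whether the lines responded differently was tested by interaction terms. For FFAs 0 members were called by limma (background 0.0182%), and 1 had an unadjusted p under 0.05, NDUFS4 (0.22 ± 0.09). SDHD was the next (-0.12 ± 0.07). For co-culture 0 members were called by limma (background 0.533%), and the only one with an unadjusted p under 0.05 was COX4I1. Its co-culture difference was lower in Caco-2 than in HepG2 by 0.27 on the log2 scale (-0.27 ± 0.09, 95% interval -0.46 to -0.08, adjusted p = 0.17, limma). COX4I1 was 1967, 1845 and 1740 TPM in Caco-2 mono-culture control and 1700 and 1667 TPM in co-culture control. In HepG2 it was 918, 770 and 979 TPM in mono-culture control and 959, 960 and 1052 TPM in co-culture control. With line and replicate number as a block the difference was -0.29 ± 0.05 and was called (adjusted p = 0.0097, limma). In that fit 835 of all 16495 genes tested were called, and COX4I1 was the only member among them. By the rule given under the processing, the numbers pair libraries in HepG2 only, and comparisons with Caco-2 co-culture control could not meet that rule. NDUFV2 was the next (-0.14 ± 0.07).

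The spread of the members between libraries of a group was small beside that of all genes. Their median residual SD on the log2 scale was 0.11 in Caco-2 and 0.13 in HepG2. For all genes tested it was 0.20 and 0.25, and for genes at least as abundant as the lowest member 0.14 and 0.18. The lowest residual SD was that of NDUFB4 in Caco-2 (0.04) and NDUFA11 in HepG2 (0.04). Several members have processed pseudogenes or read-through transcripts that can share reads: 160 such genes are listed for 45 members, and 7 of them exceeded 1% of the TPM of their member, the largest being ATP5MF-PTCD1 (7.77% of ATP5MF), SDHAP1 (6.34% of SDHA), UQCRFS1P1 (5.14% of UQCRFS1) and NDUFV2P1 (4.53% of NDUFV2). How many reads were assigned to the wrong gene of such a pair was not tested.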

How the data were processed

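mRNA-seq libraries (SMART-seq v4 per the labels, NovaSeq per the methods of the study) of Caco-2 (11) and HepG2 (12) were analysed. The authors removed rRNA, tRNA and mitochondrial reads with Bowtie2 2.1.0, mapped the rest to GRCh38 with STAR 2.7.1a and computed TPM with RSEM 1.3.0. The deposited TPM hold no counts, so no counting error is given. Groups and replicate numbers came from the labels. A longer treatment in the study was not analysed here. The labels give serum in the treatment medium, and the study's methods a serum-free medium with albumin.

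Genes whose mean reached 1 TPM in any group were tested on log2(TPM + 1) with limma 3.58.1 (R 4.3.3, eBayes with a trend, two-sided, Benjamini-Hochberg over all genes tested, threshold 0.05), with the 4 groups of a line, or all 8 groups for the lines, in 1 fit. Differences are on this scale and slightly understate fold changes of low genes. Means, overlaps, motifs and figures were computed with Python 3.11.15 (pandas 2.3.3, numpy 2.4.6, matplotlib 3.10.9). Gene positions came from GENCODE on GRCh38 and promoters from RefSeq. The fit was tested on simulated data.

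The members and lists were chosen with earlier results of these data known. Named are, by rule, the highest and lowest member of each complex, the 5 largest line differences each way, the members called or else the 2 with the smallest p in other contrasts, 13 members by role, and at most 5 called genes of each other list. NDUFA7, NDUFA10, SDHC, COX7C, COX5B and the uncalled ATP synthase members were added after their values were seen. Alternatives were pseudocount, scaling, filter, variance prior, replicate block, groups in the fit, and each library left out. Replicate numbers were taken to pair the groups of a comparison where each of 3 same-numbered pairs had deviations from the group means that correlated above 0.1. In HepG2 this held for co-culture against mono-culture in control (0.11 to 0.46) and with FFAs (0.31 to 0.60) and for FFAs in mono-culture (0.17 to 0.50), and not for FFAs in co-culture (0.03 to 0.52). It held for no comparison in Caco-2, with -0.04 to 0.24 for co-culture with FFAs and 0.08 to 0.31 for FFAs in mono-culture. Caco-2 co-culture control has 2 libraries, so that comparisons with it could not meet the rule. Their pairs correlated at -0.09 to 0.11 (co-culture in control) and -0.008 to 0.27 (FFAs in co-culture). Pairing in Caco-2 is thus not excluded. For co-culture against mono-culture in HepG2 control, libraries numbered 1 and 2 also correlated across numbers (0.14 and 0.19). Only those numbered 3 stood apart there (0.46), and the rule did not compare pairs of unlike numbers. The pairing comes from the data alone. Protein sequences were not analysed here. Values of 1 member are counted in the totals and not reported here.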

Additional observations from a re-analysis of the deposited data

How the results depend on the processing

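Of the 21 comparisons, the count of members called stayed within 1.5 times under each alternative tried, except line by co-culture with the replicate block. Scaling moved the line differences, and the cause was not tested. After median-of-ratios scaling the median over the members was 0.36 in mono-culture control, 0.32 in mono-culture with FFAs, 0.24 in co-culture control, 0.31 in co-culture with FFAs and 0.31 averaged. After quantile normalization these medians were 0.40, 0.38, 0.39, 0.44 and 0.40. The mean of each complex averaged over conditions was 0.32 (complex I), 0.62 (II), -0.014 (III), 0.51 (IV) and 0.23 (ATP synthase) after median-of-ratios scaling, and 0.42 (I), 0.72 (II) and 0.11 (III) after quantile normalization. After median-of-ratios scaling ATP5F1A (-0.064) turned negative and was not called, and NDUFA13 (-0.16) turned negative and was called higher in HepG2. The uncalled NDUFC1 and UQCR11 and the called NDUFA1 also turned negative, uncalled. ATP5MC3 (0.062) turned positive with the replicate block, in which a line difference is that at replicate 1. With 1 library left out, the median in mono-culture control lay between 0.496 and 0.652, and the difference of NDUFA13 averaged over conditions between 0.057 and 0.087, called without HepG2 mono-culture FFAs replicate 1. The filters, the pseudocount of 0.1 and limma without a trend called the same 66 members between the lines. Same-numbered libraries correlated at -0.09 to 0.31 in Caco-2 and at 0.03 to 0.60 in HepG2. By the rule above the numbers did not pair them in Caco-2, where comparisons with co-culture control could not meet it. They did in 3 of the 4 comparisons of single groups in HepG2. Of the libraries, 7 of 11 in Caco-2 and 10 of 12 in HepG2 correlated best with their own number. With the replicate block 1 member, COX4I1, was called for line by co-culture (-0.29), where genes called rose from 88 to 835. Genes called for co-culture averaged over treatments rose from 8 to 492 in HepG2 and from 0 to 60 in Caco-2, with 0 members among them. Averaged between the lines the block called 64 members, without NDUFA10, NDUFV3 and UQCRQ and with ATP5PB. That fit took replicate 1 of each line as the reference. Its line difference is thus that at replicate 1 and not an average over the libraries, so that it cannot show what pairing does to these calls. The block changed no other call of a member in the averaged comparisons. Depth is unknown, so that its part in the low genes could not be given.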
